A study of Mus musculus with 8 samples.

Results

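The genes described here are 10 maternal factors of the mouse, taken by symbol from a table of 18257 genes. They are the subcortical maternal complex genes Nlrp5, Ooep, Tle6, Khdc3, Padi6, Zbed3, Nlrp4f and Nlrp2, and the maternal-effect genes Zar1 and Npm2, and each was found once in the table. RNA came from wild-type embryos labelled as morulae. The treated embryos had been kept from the 4-cell stage in KSOM, an embryo culture medium, with 2 µM A485, an inhibitor of the acetyltransferases p300 and CBP. The control embryos had been kept in the same medium with 0.1% DMSO, the solvent of the drug, and the labels do not state the DMSO share of the treated medium. Each group had 4 libraries, each of 3 pooled embryos freed of the zona pellucida, so single embryos cannot be seen. The labels run the culture to the blastocyst stage although the samples are called morulae, and they give no strain, litter or culture day.

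The subcortical maternal complex is a protein assembly under the cell membrane of the oocyte and the cleaving embryo. Its messages are made in the growing oocyte and are in general largely lost after fertilisation, while the proteins persist through preimplantation development. Khdc3 was nonetheless abundant here, at rank 155 by mean TPM among the 18257 genes in control embryos. Whether its message was left over from the oocyte or newly made was not tested. Female mice that lack a core component such as Nlrp5, Ooep or Tle6 produce embryos that arrest during early cleavage. Zar1 encodes an oocyte RNA-binding protein, and Npm2 encodes nucleoplasmin, a histone chaperone that acts on sperm chromatin after fertilisation.

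Libraries held 23641781 to 25677701 estimated counts each, and 12936 genes passed the filter on low counts. All 9 markers of the morula and blastocyst were detected, at a summed level of 1369 to 3057 TPM in A485 libraries and 1424 to 1673 TPM in control libraries. Of these, 6 were lower in A485 (Cdx2, Nanog, Gata3, Pou5f1, Tfap2c and Tead4) and 2 were higher (Krt8 and Krt18). Krt8 and Krt18 averaged 892.5 and 1084 TPM in A485 libraries and made up most of the sum there, against 216.5 and 395.5 TPM in control libraries. Of 10 cumulus and granulosa cell markers 7 stayed under 1 TPM in every library, and the list summed to 18.7 to 34.5 TPM in A485 libraries against 12.6 to 21.2 TPM in control libraries, mostly from Amhr2, and its part in the results below was not tested. Inha, encoding an inhibin subunit, was listed at 0 in all control libraries but held 22 to 55 counts in A485 libraries. The 5 sperm and spermatid markers in the table summed to 1.02 to 2.5 TPM in A485 libraries and 0.29 to 2.18 TPM in control libraries, and none was tested. The A485 libraries fell into pairs on the second principal component, with replicates 1 and 2 on one side and replicates 3 and 4 on the other, so results are also given without either pair where that matters.

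The 10 messages spanned a wide range of levels, compared here in TPM, which counts reads per transcript length. In A485 embryos Khdc3 averaged 401 ± 176 TPM, Tle6 11.8 ± 4.89, Ooep 11.8 ± 4.59, Zbed3 2.98 ± 0.862, Padi6 1.70 ± 0.638, Npm2 1.2 ± 0.243 and Nlrp4f 1.06 ± 0.746 TPM (SD, n = 4), and Zar1, Nlrp5 and Nlrp2 stayed under 1 TPM on average. In control embryos Khdc3 averaged 1276 ± 107 TPM, Ooep 13.6 ± 3.37, Padi6 11.3 ± 2.88, Npm2 2.23 ± 0.231 and Tle6 1.72 ± 0.830 TPM (SD, n = 4), and the other 5 stayed under 1 TPM on average. Khdc3 stood apart from all other members in both groups. Among members averaging over 1 TPM, Tle6 and Ooep overlapped in A485 libraries, as did Padi6 and Zbed3, Zbed3 and Nlrp4f, and Padi6, Npm2 and Nlrp4f. Ooep and Padi6 overlapped in control libraries, as did Npm2 and Tle6, and Tle6 also overlapped Zbed3, which averaged under 1 TPM. Tle6 thus stood above Padi6 in every A485 library and below it in every control library. Khdc3 alone made up 88.4% to 96.8% of the summed TPM of the members in A485 libraries and 97.4% to 98.1% in control libraries. Without it, the sum was 21.6 to 35.7 TPM in A485 libraries and 26.1 to 33.5 TPM in control libraries, and the ranges overlapped.

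**Figure D1:**
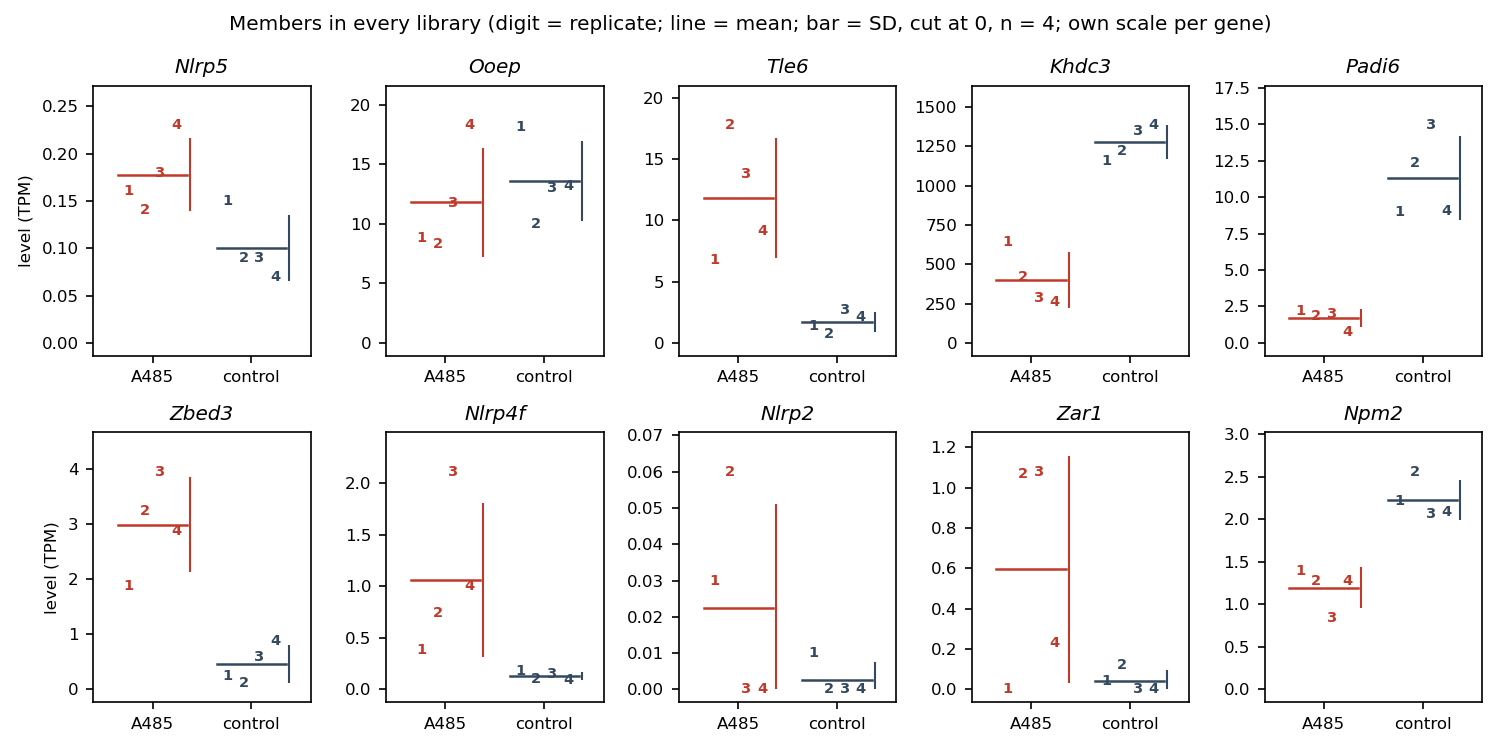
Level of each member in TPM (vertical axis, a separate scale for each gene) in the 4 A485 libraries (left, red) and the 4 control libraries (right, blue). Digits are replicates, lines are means and vertical bars are SDs, cut at 0. Khdc3, Padi6 and Npm2 lie lower in all A485 libraries than in any control library, and Tle6, Zbed3 and Nlrp4f lie higher.

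Changes are given as the log2 ratio of A485 over control, tested by the quasi-likelihood method of edgeR and adjusted after Benjamini and Hochberg. The ratios are relative to the other genes of a library, so a change in the amount of RNA per embryo would not be seen. Tle6, Zbed3 and Nlrp4f rose in A485 embryos, Khdc3 and Padi6 fell, Nlrp5, Ooep and Npm2 did not pass, and Nlrp2 and Zar1 had too few counts to be tested. Of the 8 tested members 5 changed, 3 upward and 2 downward. The background is high, since 54.7% of all tested genes were called at an adjusted threshold of 0.05 (29.7% upward and 25.0% downward), and the share of members that changed is close to it. The median log2 ratio of the 8 tested members was 0.02, against 0.09 over all tested genes. The 2 groups did not overlap in CPM for 6 members, the 5 that changed and Npm2, against 51.5% of all tested genes. Zbed3, Nlrp4f and Nlrp5 reached the minimum of the filter in all 4 A485 libraries but in 3, 2 and 1 control libraries, and so owed their testing in part to the A485 libraries. In pooled embryos, fewer cells with a message and less of it per cell cannot be told apart.

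Among the core components, Khdc3 and Tle6 moved in opposite directions. Khdc3, which encodes the KH-domain protein FILIA, linked to genome stability in early embryos and embryonic stem cells, had 644, 416, 286 and 257 TPM in A485 replicates 1 to 4, against 1156, 1217, 1347 and 1384 TPM in control replicates 1 to 4. All A485 libraries lay below all control libraries, and the A485 libraries differed among themselves more than the control libraries did. The log2 ratio was -1.96 ± 0.32 (SE; edgeR, adjusted p = 0.000638), about 3.88-fold lower in A485. Over the alternative settings described below it ran from -2.64, without A485 replicates 1 and 2, to -1.50.

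Tle6, a member of the Groucho family of transcriptional corepressors that is part of the complex in oocytes, had 6.73, 17.8, 13.7 and 9.16 TPM in A485 replicates 1 to 4, against 1.38, 0.740, 2.64 and 2.10 TPM in control replicates 1 to 4. The groups were well apart, with the lowest A485 library above the highest control library. In Tle6 the log2 ratio was 2.41 ± 0.36 (SE; edgeR, adjusted p = 0.000362), about 5.31-fold higher in A485. The 3' part of Tle6 overlaps Tle2 on chromosome 10, and the strand setting of the counting is unknown here; Tle2 itself averaged 0.105 TPM in A485 and 0.0400 TPM in control libraries.

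Ooep, encoding a KH-domain protein that the complex needs to assemble, had 8.83, 8.31, 11.8 and 18.3 TPM in A485 replicates 1 to 4, against 18.1, 9.99, 13.0 and 13.2 TPM in control replicates 1 to 4. The groups overlapped, with A485 replicate 4 and control replicate 1 at the top of their groups. For Ooep the log2 ratio was -0.51 ± 0.29 (SE; edgeR, adjusted p = 0.162). Without A485 replicate 4 it passed at -0.83 (edgeR, adjusted p = 0.0171), and without A485 replicates 3 and 4 at -0.91 (edgeR, adjusted p = 0.016). Whether Ooep passes therefore rests on A485 replicate 4.

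Nlrp5, encoding the maternal antigen MATER that holds the complex together, was near the limit of detection. It had 13, 10, 13 and 18 counts in A485 replicates 1 to 4 and 12, 7, 7 and 5 counts in control replicates 1 to 4. The groups overlapped, and the log2 ratio was 0.54 ± 0.49 (SE; edgeR, adjusted p = 0.367).

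Among the associated proteins, Padi6 had the largest change of the members tested. Padi6 belongs to the peptidylarginine deiminase family and is required for the cytoplasmic lattices of the oocyte. It had 2.2, 1.81, 2.01 and 0.770 TPM in A485 replicates 1 to 4, against 8.97, 12.4, 14.9 and 9.05 TPM in control replicates 1 to 4. No A485 library came near the lowest control library. This gave a log2 ratio of -3.04 ± 0.33 (SE; edgeR, adjusted p = 6.33e-05), about 8.22-fold lower in A485.

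Zbed3, encoding a BED-type zinc finger protein that binds axin and takes part in placing the spindle in the zygote, had 1.88, 3.24, 3.95 and 2.87 TPM in A485 replicates 1 to 4, against 0.25, 0.12, 0.590 and 0.880 TPM in control replicates 1 to 4. The groups did not overlap, although control replicates 3 and 4 stood above control replicates 1 and 2. Zbed3 thus had a log2 ratio of 2.27 ± 0.49 (SE; edgeR, adjusted p = 0.0031), about 4.81-fold higher in A485.

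Nlrp4f, an oocyte gene of the NLRP family whose protein takes part in placing organelles in the mouse egg, had 0.38, 0.74, 2.11 and 1.00 TPM in A485 replicates 1 to 4, against 0.180, 0.100, 0.150 and 0.0900 TPM in control replicates 1 to 4. The groups did not overlap, and A485 replicates 3 and 4 were the highest libraries. For Nlrp4f the log2 ratio was 2.64 ± 0.52 (SE; edgeR, adjusted p = 0.00167), or 1.80 without A485 replicates 3 and 4 (edgeR, adjusted p = 0.0179). The control libraries held 15, 8, 12 and 7 counts, so the fold rests on few control counts.

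Nlrp2, another NLRP gene of the oocyte, was all but absent, with 2, 4, 0 and 0 counts in A485 replicates 1 to 4 and 1, 0, 0 and 0 counts in control replicates 1 to 4. The ratio of 6 to 1 counts after scaling was 5.02, with a 95% exact interval of 0.609 to 230.7 that covers counting error only. A difference of Nlrp2 was not detectable at this depth.

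**Figure D2:**
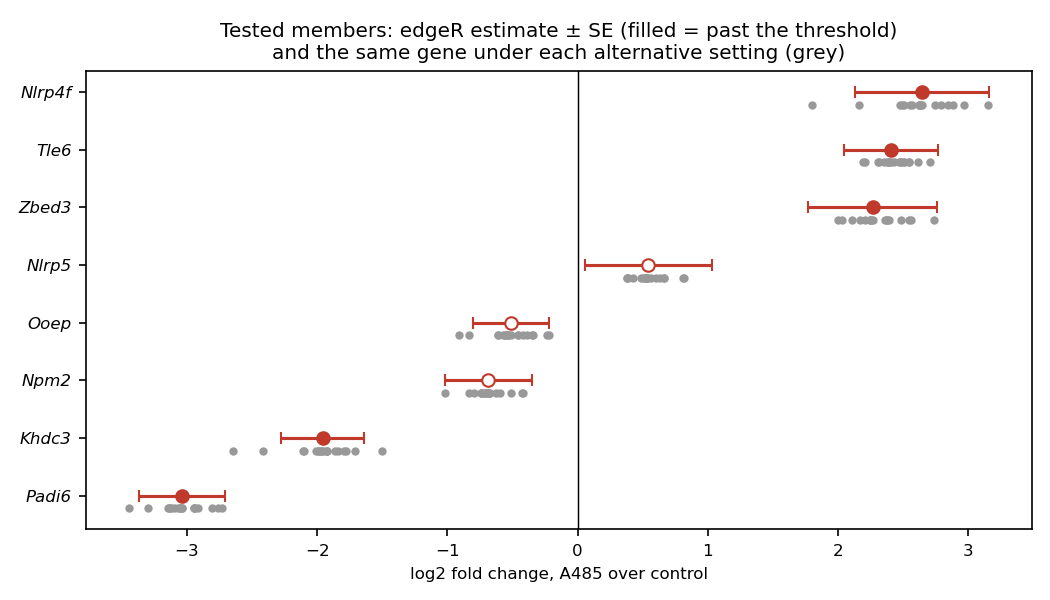
Log2 ratio of A485 over control (horizontal axis) for the 8 tested members, with SE bars; filled red points passed the threshold and open points did not. Grey points give the same gene under each alternative setting. All grey points of a gene lie on the same side of 0 as its red point, from -3.45 for Padi6 to 3.15 for Nlrp4f.

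Of the maternal-effect genes outside the complex, Zar1 was found almost only in A485 libraries. It had 0, 25, 26 and 6 counts in A485 replicates 1 to 4, against 1, 3, 0 and 0 counts in control replicates 1 to 4. A485 replicate 1 was at 0, so the groups overlapped. The gene reached the minimum of the filter in 2 A485 libraries and 0 control libraries, and so was not tested. The ratio of 57 to 4 counts after scaling was 11.9, with a 95% exact interval of 4.41 to 45.2 that covers counting error only. With no filter its log2 ratio was 3.31 (edgeR, adjusted p = 0.0627), while the authors' deposited table gives 3.47 with a q-value of 0.0479.

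Npm2 had 43, 42, 25 and 37 counts in A485 replicates 1 to 4, against 53, 53, 45 and 49 counts in control replicates 1 to 4. Every A485 library was below every control library, but the log2 ratio of -0.69 ± 0.33 (SE) did not pass (edgeR, adjusted p = 0.106). In TPM the gap was wider, at 1.39, 1.27, 0.840 and 1.28 TPM in A485 replicates 1 to 4 against 2.21, 2.56, 2.06 and 2.08 TPM in control replicates 1 to 4. The log2 ratio of mean TPM minus that of mean CPM was -0.21 for Npm2, against 0.32 at the median of tested genes and 0.28 to 0.43 for the 7 other tested members. TPM depends on the transcript lengths that the authors' program assigned, and whether the isoforms of Npm2 differed was not tested.

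The authors' deposited table gives the same signs for all 10 members. Its log2 ratios were 2.38 for Tle6, 2.25 for Zbed3, 2.62 for Nlrp4f, -1.98 for Khdc3 and -3.07 for Padi6, with q-values of 6.45e-10, 2.23e-05, 9.27e-06, 9.67e-09 and 5.26e-19.

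**Figure D3:**
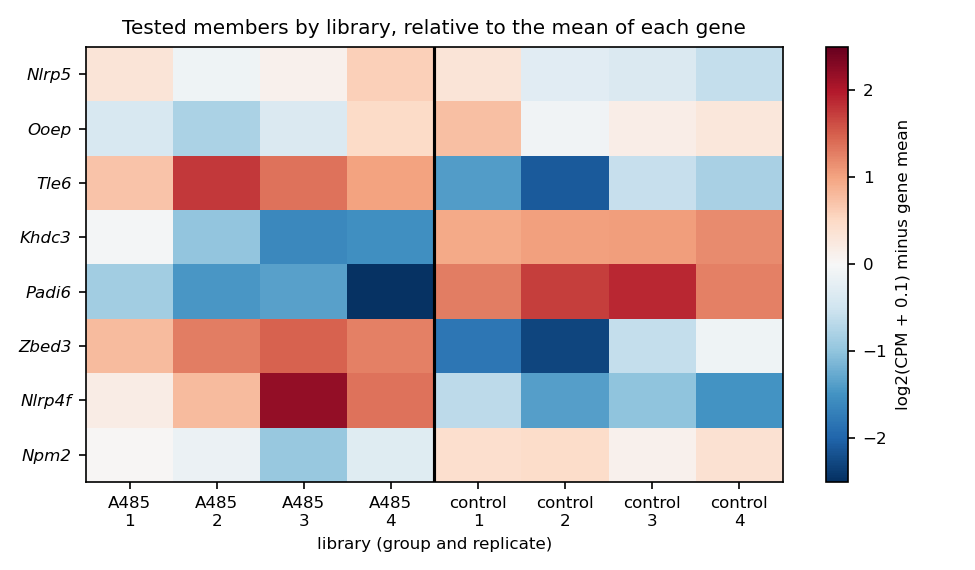
Level of the 8 tested members in each library (columns, A485 replicates 1 to 4 on the left and control replicates 1 to 4 on the right), as log2(CPM + 0.1) minus the mean of the gene over the 8 libraries. Red is above and blue below that mean, and the colour scale ends at 2.5 on either side. In A485 replicates 3 and 4 Khdc3 is at its lowest and Nlrp4f at its highest, and Ooep is highest in A485 replicate 4 and control replicate 1.

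The members differed in how they varied inside the A485 group. Khdc3 was higher in A485 replicates 1 and 2 than in replicates 3 and 4, and Nlrp4f was lower in them. Markers of the 2-cell embryo, of which 9 of 11 were in the table, followed the same pairs, with sums of 188.6, 288.9, 20.2 and 23.0 TPM in A485 replicates 1 to 4 against 1.55 to 4.95 TPM in control libraries. The 4 that were tested, Zfp352, Tcstv1, Tcstv3 and Usp17lc, all rose, but each reached the minimum of the filter in all 4 A485 libraries and in at most 3 control libraries, so they were tested through the group in which they were high. Dux and the Zscan4 genes in the table averaged under 1 TPM in both groups. The part of this in the results for the members was not tested. As each pair of replicates is only 2 libraries, values of a member without either pair are given above where they move it by over 1.5 times.

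The members lie on 7 chromosomes. In GRCm38.p6, Khdc3 lies on chromosome 9 at 73101381 to 73106631 and Ooep on chromosome 9 at 78376903 to 78378588. Padi6 lies on chromosome 4 at 140727355 to 140742643, and Tle6 on chromosome 10 at 81590904 to 81601185. Zbed3 and Nlrp4f lie on chromosome 13 at 95323605 to 95337842 and 65177111 to 65205716. Nlrp5 and Nlrp2 lie on chromosome 7 at 23385889 to 23441923 and 5298547 to 5351035. Zar1 lies on chromosome 5 at 72577113 to 72581361 and Npm2 on chromosome 14 at 70647296 to 70661802.

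The promoters of 4 members that changed are shown because oocyte genes are known to be bound through E-boxes, by FIGLA and its partners, and through homeobox elements, by NOBOX. Each window runs from 250 bases before to 50 bases after an annotated start in RefSeq (GRCm38.p6), and capitals mark the E-box CANNTG and the element TAATTG, found on either strand. The windows are chr9:73102148-73102447 on the plus strand for Khdc3, chr4:140742594-140742893 on the minus strand for Padi6, chr10:81600851-81601150 on the minus strand for Tle6 and chr13:65205667-65205966 on the minus strand for Nlrp4f. Zbed3, which also changed, is not shown, and each of its windows holds CANNTG. Another window of Tle6, chr10:81597318-81597617, is not shown and holds CANNTG but no CACGTG.
Khdc3: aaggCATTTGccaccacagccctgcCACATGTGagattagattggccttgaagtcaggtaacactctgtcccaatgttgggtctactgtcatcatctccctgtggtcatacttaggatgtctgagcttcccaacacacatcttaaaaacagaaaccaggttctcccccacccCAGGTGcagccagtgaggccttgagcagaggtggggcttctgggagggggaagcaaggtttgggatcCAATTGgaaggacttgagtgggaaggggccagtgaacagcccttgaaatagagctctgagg
Padi6: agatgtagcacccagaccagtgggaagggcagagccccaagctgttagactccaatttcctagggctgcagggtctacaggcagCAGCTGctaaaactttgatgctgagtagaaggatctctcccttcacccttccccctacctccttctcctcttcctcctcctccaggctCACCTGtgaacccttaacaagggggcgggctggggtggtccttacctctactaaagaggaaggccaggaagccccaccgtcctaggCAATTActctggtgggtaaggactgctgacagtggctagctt
Tle6: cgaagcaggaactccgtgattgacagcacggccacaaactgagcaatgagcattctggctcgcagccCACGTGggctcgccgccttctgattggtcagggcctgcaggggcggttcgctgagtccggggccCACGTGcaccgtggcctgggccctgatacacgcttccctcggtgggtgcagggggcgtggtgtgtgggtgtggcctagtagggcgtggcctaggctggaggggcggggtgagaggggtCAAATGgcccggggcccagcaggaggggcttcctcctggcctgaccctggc
Nlrp4f: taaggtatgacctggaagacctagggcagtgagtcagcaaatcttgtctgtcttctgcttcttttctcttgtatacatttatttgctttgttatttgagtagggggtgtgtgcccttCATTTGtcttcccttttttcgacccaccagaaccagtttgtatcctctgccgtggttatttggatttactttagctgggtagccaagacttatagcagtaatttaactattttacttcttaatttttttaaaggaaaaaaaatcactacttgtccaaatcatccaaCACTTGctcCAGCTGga

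RefSeq windows were found for 9 of the 10 members (13 windows, since some genes have several starts), and none was found for Npm2. CANNTG, matched on both strands and counted once per position, was in 12 of the 13 windows and in 72.3% of all 32851 promoter windows. The form CAGCTG was in 6 of 13 windows, against 16.3% of all windows. The form CACGTG was in 1 window, that of Tle6 shown above, with 2 matches, against 7.15% of all windows. TAATTG was in the windows of Ooep and Padi6, against 8.0% of all windows. TATAAA was in 2 windows (13.6% of all) and CCAAT in 7 (37.4% of all). Khdc3 and Padi6, which fell, and Tle6 and Nlrp4f, which rose, all hold CANNTG. A match is a run of letters and was not tested as a site.

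The families of the members were followed in lists drawn up by family and role, whose counts are to be read against the 29.7% of all tested genes that rose and the 25.0% that fell. The lists share some genes, whose calls are counted in each list. Figla and Tcl1 stand among both the maternal-effect and the oocyte genes. Cnot6l and Zfp36l2 stand among both the maternal-effect genes and the genes for the clearance of maternal RNA. Of 16 other NLRP genes 15 were in the table and 6 were tested, of which 2 rose and 2 fell, with a median log2 ratio of 0.14. Of the 2 that rose, 1 reached the minimum of the filter in all control libraries. Of the 2 that fell, 1 reached it in all A485 libraries. Nlrp4e and Nlrp12 thus owed their testing in part to the group in which they were high. Nlrp4c, an oocyte gene of the same subfamily as Nlrp4f, had 9.15, 11.4, 16.5 and 18.9 TPM in A485 replicates 1 to 4 against 2.63 to 4.16 TPM in control libraries, and its log2 ratio was 1.67 ± 0.24 (SE; edgeR, adjusted p = 0.000269). Nlrp4e had 1.69, 2.47, 0.26 and 2.65 TPM in A485 replicates 1 to 4 against 0.43, 0.22, 0.02 and 0.15 TPM in control replicates 1 to 4. The groups thus overlapped. Nlrp4e rose with a log2 ratio of 3.09 ± 0.86 (SE; edgeR, adjusted p = 0.0121). With single libraries left out the ratio ran from 2.66 to 3.86, the highest without control replicate 1. The call was lost in limma-voom (adjusted p = 0.0787) and without A485 replicates 1 and 2 (edgeR, adjusted p = 0.0523). Counts of Nlrp4c and Nlrp4e are in part not whole, so they are uncertain, whereas those of Nlrp4f are whole in every library. How alike the sequences of the Nlrp4 genes are was not tested. Nlrp1a and Nlrp12, known from immune cells, fell, with log2 ratios of -1.34 ± 0.37 and -2.10 ± 0.62 (SE; edgeR, adjusted p = 0.0107 and 0.0153), both under 1 TPM in all libraries. The call of Nlrp1a was lost without A485 replicates 3 and 4 (edgeR, adjusted p = 0.0588), and Nlrp12 had -2.68 without A485 replicate 3. Nlrp14, a maternal-effect gene, had a log2 ratio of 0.96 ± 0.57 (SE; edgeR, adjusted p = 0.181).

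Of 20 other relatives of the members 17 were tested, of which 4 rose and 4 fell, with a median log2 ratio of -0.20. Of the 4 that rose, 3 reached the minimum of the filter in all control libraries and 4 in all A485 libraries. Padi3 thus owed its testing in part to the A485 libraries. The deiminase genes differed among themselves. Padi4, whose protein citrullinates histones, had 1.56 to 4.63 TPM in A485 libraries and 0.340 to 0.650 TPM in control libraries, with a log2 ratio of 2.22 ± 0.37 (SE; edgeR, adjusted p = 0.000658), opposite in sign to that of Padi6. Padi3 rose with a log2 ratio of 1.55 ± 0.49 (SE; edgeR, adjusted p = 0.0205), a call lost without A485 replicate 3, without control replicate 1 or 2 and without A485 replicates 1 and 2 (edgeR, adjusted p of 0.0546 to 0.0601). Tle5, a short Groucho family gene, had 18.8, 36.2, 41.7 and 34.1 TPM in A485 replicates 1 to 4 against 3.66 to 4.65 TPM in control libraries, and its log2 ratio was 2.68 ± 0.20 (SE; edgeR, adjusted p = 1.22e-05). The Groucho family genes Tle1 and Tle4, both named here after their values were seen, had less stable calls. Tle1 rose with a log2 ratio of 0.86 ± 0.30 (SE; edgeR, adjusted p = 0.0335), a call lost in 9 of 18 alternatives, among them the omission of A485 replicate 3 or 4 and of any single control library. Tle4 fell with a log2 ratio of -0.85 ± 0.31 (SE; edgeR, adjusted p = 0.0406), a call lost in 11 of 19 alternatives, among them the omission of A485 replicate 2, 3 or 4 and of any single control library. Tle3 did not pass. The other nucleoplasmin genes Npm1 and Npm3 fell, Npm1 with 1513 to 3104 TPM in A485 libraries and 3718 to 4372 TPM in control libraries. Their log2 ratios were -1.18 ± 0.26 and -1.38 ± 0.34 (SE; edgeR, adjusted p = 0.00334 and 0.00594). Dppa5a, a KH-domain gene related to Ooep and Khdc3, fell by 0.71 ± 0.16 on the log2 scale (SE; edgeR, adjusted p = 0.00343) at 4978 TPM in A485 and 6604 TPM in control libraries on average. Zar1l, the relative of Zar1, was at 0, 0, 0.370 and 1.36 TPM in A485 replicates 1 to 4 and at most 0.0600 TPM in control libraries, and was not tested.

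Of 32 other maternal-effect genes 29 were tested, of which 8 rose and 9 fell, with a median log2 ratio of 0.22. Of the 8 that rose, 6 reached the minimum of the filter in all control libraries and 8 in all A485 libraries. Of the 9 that fell, 9 reached it in all control libraries and 8 in all A485 libraries. Dppa3, which protects the maternal genome from demethylation in the zygote, had 6367, 4575, 1527 and 1872 TPM in A485 replicates 1 to 4 against 10345 to 11381 TPM in control libraries. Like Khdc3, it was lower in A485 replicates 3 and 4 than in replicates 1 and 2. Its log2 ratio was -1.85 ± 0.46 (SE; edgeR, adjusted p = 0.00754), with -3.05 without A485 replicates 1 and 2 and -1.21 without A485 replicates 3 and 4. Sall4, a pluripotency factor, Zfp36l2, an RNA-decay factor, and Ago2, an Argonaute gene, fell with log2 ratios of -1.42 ± 0.23, -2.01 ± 0.37 and -1.41 ± 0.26 (SE; edgeR, adjusted p = 0.000543, 0.00118 and 0.00128). Ube2a, a ubiquitin-conjugating enzyme gene, Ctnnb1, encoding beta-catenin, and Cnot6l, a deadenylase gene, rose with log2 ratios of 1.03 ± 0.13, 0.94 ± 0.12 and 1.48 ± 0.32 (SE; edgeR, adjusted p = 0.000113, 0.00018 and 0.00277). With no filter, with a replicate block, without control replicate 4 and without A485 replicates 1 and 2 the number that rose was 5, and without control replicate 3 it was 4.

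Of 33 genes active in oocytes 32 were in the table and 20 were tested, of which 9 rose and 1 fell, with a median log2 ratio of 1.41. Over all tested genes 29.7% rose and 25.0% fell. Of the 9 that rose, 4 reached the minimum of the filter in all control libraries and 9 in all A485 libraries, so the list tested leans to genes high in A485. Its sum was 52.8 to 94.1 TPM in A485 libraries and 23.1 to 39.5 TPM in control libraries, beside the 2-cell embryo markers given above, whose part was not tested. Ddx4, a germ cell RNA helicase gene, had 9.47 to 16.1 TPM in A485 libraries and 1.36 to 3.56 TPM in control libraries, with a log2 ratio of 2.08 ± 0.28 (SE; edgeR, adjusted p = 0.000208). Sohlh2, a germ cell transcription factor gene, and Cpeb1, a regulator of oocyte translation, rose with log2 ratios of 2.37 ± 0.34 and 3.49 ± 0.50 (SE; edgeR, adjusted p = 0.00028 and 0.000319), and that of Cpeb1 was 2.51 without A485 replicates 3 and 4. Tcl1, a cofactor of AKT, fell with a log2 ratio of -1.52 ± 0.43 (SE; edgeR, adjusted p = 0.013). H1f8, the oocyte linker histone gene, rose with a log2 ratio of 1.17 ± 0.45 (SE; edgeR, adjusted p = 0.0486), a call lost in 11 of 18 alternatives (edgeR, DESeq2 or limma adjusted p of 0.0194 to 0.134 over all of them). The zona and oocyte ligand genes Zp3 and Gdf9 had log2 ratios of 0.29 ± 0.30 and 0.35 ± 0.57 (SE; edgeR, adjusted p = 0.434 and 0.624), and Bmp15 was too low to be tested.

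Of 20 genes for the clearance of maternal RNA 19 were tested, of which 3 rose and 3 fell, with a median log2 ratio of 0.26. These 6 calls stand beside 54.7% called over all tested genes. Tut4, which adds uridines to messages marked for decay, and Cnot6l rose, Tut4 with a log2 ratio of 1.24 ± 0.25 (SE; edgeR, adjusted p = 0.00197). Cnot3, a subunit of the CCR4-NOT deadenylase, rose with a log2 ratio of 0.42 ± 0.15 (SE; edgeR, adjusted p = 0.0304), but the call was lost in 10 of 19 alternatives. Zfp36l2 and Cnot2 fell, Cnot2 with a log2 ratio of -0.45 ± 0.12 (SE; edgeR, adjusted p = 0.0118), lost under total-count scaling. Pan2, of another deadenylase, fell with a log2 ratio of -0.55 ± 0.19 (SE; edgeR, adjusted p = 0.0333), lost in 11 of 19 alternatives. Under total-count scaling 7 of the list rose and 1 fell. Btg4, the adaptor that brings the deadenylase to maternal messages, had a log2 ratio of 0.56 ± 0.75 (SE; edgeR, adjusted p = 0.546) at under 1 TPM in all libraries, and 1.21 in limma-voom (adjusted p = 0.284).

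**Figure D4:**
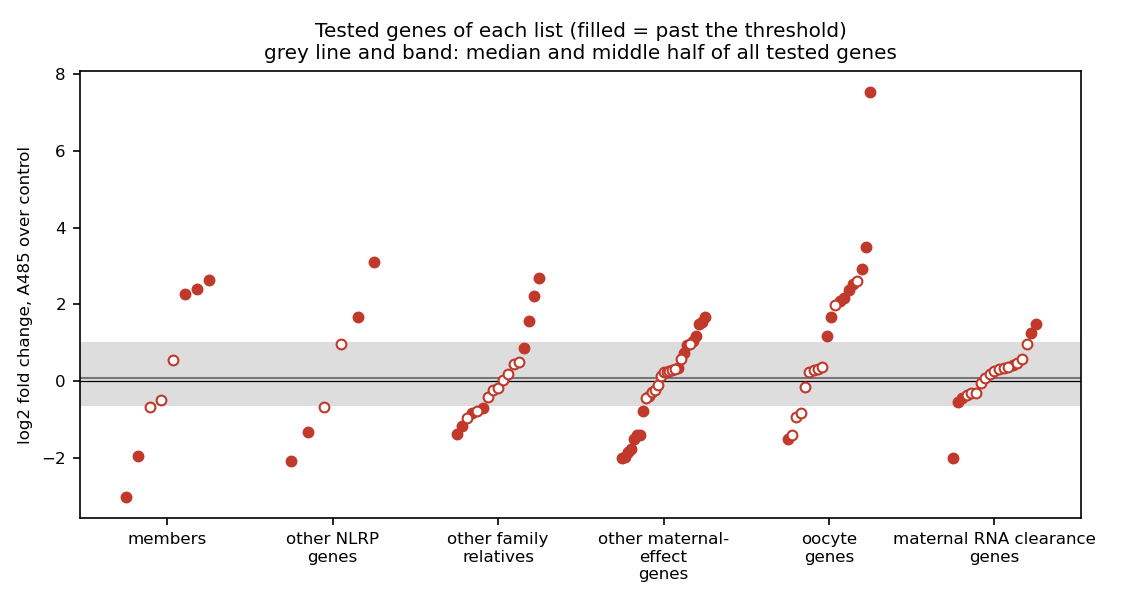
Log2 ratio of A485 over control (vertical axis) for each tested gene of the 6 lists, with 1 point per gene; filled points passed the threshold and open points did not. The grey line and band give the median (0.09) and the middle part of all tested genes, from the lower quartile (-0.64) to the upper quartile (0.99). Of the 8 members 6 lie outside the band, 3 above and 3 below it, and the oocyte genes have a median of 1.41. Of the 9 oocyte genes that rose, only 4 reached the minimum of the filter in all control libraries. The oocyte list as tested thus leans to genes high in A485.

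Other genes whose level followed the same course over the 8 libraries were sought by the root mean square difference of log2 CPM after subtraction of each gene's mean, among 9922 genes. Nearest to Khdc3 were Tomm5 (0.137) and Timd2 (0.144), and nearest to Padi6 were Eef2kmt (0.266) and Bcat1 (0.291). Nearest to Tle6 were Trim47 (0.213) and Asap1 (0.215), and Asap1 was also nearest to Zbed3 (0.332), followed by Mns1 (0.347). Nearest to Nlrp4f were Fam122b (0.249) and Crat (0.255). Among the members themselves, Tle6 and Zbed3 were closest to each other (0.368), and Khdc3 and Padi6 were each other's nearest member at 0.631. For Ooep the nearest genes were Myorg (0.167) and Slc35f6 (0.171), for Npm2 Baz1a (0.102) and Rpl13a (0.109), and for Nlrp5 E2f8 (0.168) and Rnf181 (0.176). No p is attached, since the libraries and the treatment are shared by all genes.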

How the data were processed

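RNA of 8 libraries of pooled mouse embryos was measured, 4 with A485 and 4 controls. Per the submitters' processing notes, the build was GRCm38.p6 and the tools, named with no role, included RSEM 1.2.28, HISAT2 2.2.1 and DESeq2 1.40.2. The authors deposited 1 table with an estimated count per gene and library (18.2% of values not whole; 1 of the 80 values of the members), and with TPM, which the authors scaled by transcript length and to a common total. In the same table the authors give a log2 fold change (A485 over control), p-value and q-value per gene. TPM entered no test.

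Estimated counts were rounded and fitted in R 4.3.3 by edgeR 4.0.16 (low counts removed by filterByExpr with a minimum of 10 counts, TMM factors, robust quasi-likelihood fit on group), adjusted after Benjamini and Hochberg (12936 genes, threshold 0.05). The standard error is the log2 fold change over the square root of its F statistic, and CPM was scaled with the TMM factors; log2 CPM used a prior of 2 counts. The members and lists were chosen with earlier results of these data known. Named are all members, up to 3 genes of smallest p per list and direction, and a preset group including Nlrp14, Dppa3 and Zp3. The code was tested on simulated data. Same-numbered libraries were not treated as pairs. Alternatives were DESeq2 1.42.0, limma-voom (limma 3.58.1), RLE and upper-quartile factors, total-count scaling, a 5 CPM filter (in 4 libraries) or none, dispersion without robust fitting, a replicate block, and omission of each library; leaving out A485 replicates 1 and 2 or 3 and 4 was added after seeing the data. Nothing says that pools came from separate litters, so p-values measure the spread between pools. No replicate pair agreed within sampling noise (chi-square per degree of freedom of 57.8 to 199.3 in A485 and 18.8 to 33.1 in control). Gene coordinates and promoters come from RefSeq (GRCm38.p6). PCR copies cannot be told from molecules, so counting intervals cover counting error only.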

Additional observations from a re-analysis of the deposited data

Results flagged for a closer look

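Among the 10 members in either group, 1 library stood far from the other 3 of its group by Dixon's criterion for 4 samples. Nlrp2 was listed at 0.0100 TPM in control replicate 1, from 1 count, and at 0 in the other control libraries. Chance flags about 1 in 20 groups, and 20 groups were screened. That rate is for continuous values, whereas 1 count beside 0 in the rest of a group is always flagged.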

How the results depend on the processing

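The rises of Tle6, Zbed3 and Nlrp4f and the falls of Khdc3 and Padi6 kept their direction and stayed past the threshold in every alternative that tested them, 19 for Tle6, Khdc3 and Padi6 and 18 for Zbed3 and Nlrp4f, which the 5 CPM filter removes. Nlrp5 and Npm2 passed in none of 18. With the 5 CPM filter, which tests 8194 genes, 2526 genes were higher, and the counts of higher genes were 1 for members, NLRP genes and relatives and 3 for oocyte genes; the counts of lower genes were 0 for NLRP and oocyte genes and 1 for clearance genes. Limma-voom had 1 higher NLRP gene. Under total-count scaling the median log2 ratio over tested genes was 0.37 and 68.2% of calls were higher, against 0.09 and 54.2% as reported; 7 clearance genes were then higher and 1 lower. No filter and the replicate block each gave 5 higher maternal-effect genes. Without A485 replicates 1 and 2, 8 relatives were lower, 5 maternal-effect genes higher and 2 oocyte genes lower, and without A485 replicates 3 and 4, 1 NLRP gene and 2 oocyte genes were lower. Leaving out single libraries gave 2 to 4 higher relatives and 4 to 7 higher maternal-effect genes. Gdf9 was -0.255 to 0.653 when single libraries were left out, with the reversal without A485 replicate 2, and Zp3 reversed to -0.248 without A485 replicates 3 and 4. The cause was not tested. Same-numbered libraries correlated at 0.01 to 0.10 in their deviations, so the numbers are not read as pairs; the replicate block gave 3508 higher and 3163 lower genes over all and 3 and 2 among the members. Nlrp2 and Nlrp5 had at most 18 counts in any library, and Zar1 had 0 to 26 counts in A485 libraries of similar depth.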

Other observations

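Of the genes next to the members, picked by position alone, 15 were tested. Of these 3 were higher in A485, 5 were lower and 7 did not pass, so 8 of 15 were called, beside 54.7% of all tested genes. Padi4 lies 2865 bases from Padi6 on chromosome 4 and was higher in A485 while Padi6 was lower. On the other side of Padi6, at 4135 bases, Rcc2, a regulator of mitosis, was lower with a log2 ratio of -1.01 ± 0.33 (SE; edgeR adjusted p = 0.0238), a call lost in 6 of 19 alternatives, total-count scaling and single left-out libraries among them. Without A485 replicates 1 and 2 the log2 ratio of Rcc2 was -1.61 (edgeR adjusted p = 0.000345). Both neighbours of Khdc3 were lower, Rab27a, a vesicle transport gene, with a log2 ratio of -1.38 ± 0.25 and Rsl24d1, a ribosome assembly gene, with -0.90 ± 0.23 (SE; edgeR adjusted p = 0.00112 and 0.00817). Dppa5a, 8704 bases from Ooep, was lower. Tle5, 24533 bases from Tle6, was higher, whereas Sirt6, a deacetylase gene 20602 bases away on the other side, was lower with a log2 ratio of -1.13 ± 0.17 (SE; edgeR adjusted p = 0.000367). Nlrp4e, 23612 bases from Nlrp5, was higher, but its groups overlapped and its call was lost in the settings named above for it.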
